A study of Mus musculus with 6 samples.

Results

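The miRNAs described here are 8 names of 1065 in the deposited table that are best known from neurons and sense organs but were also read in cultured myoblasts. They were taken by name: mmu-miR-182-5p, mmu-miR-183-5p and mmu-miR-96-5p of the miR-183 cluster, mmu-miR-9-5p and mmu-miR-9-3p, mmu-miR-129-5p, and mmu-miR-9b-3p and mmu-miR-129b-3p, which lie on the opposite strand at the places of miR-9-5p and miR-129-5p. The prefix mmu, for mouse, is left out from here on. The libraries are small RNA libraries of C2C12, an established mouse myoblast line that fuses into muscle fibres when serum is withdrawn. A set of 3 libraries came from control cells and another 3 from cells given TGF-beta, a signalling protein that holds back muscle differentiation. All 6 share the same line and no other genotype or agent is named, and the dose, the duration and the TGF-beta isoform are not stated in the labels. The labels number the replicates 1 to 3 as biosamples without saying that they were separate cultures, so the p-values rest on a spread between libraries that may be technical.

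A miRNA is cut from a hairpin precursor that can yield a mature strand from either arm, called 5p and 3p, and it finds its target RNAs mainly through its seed, bases 2 to 8 from the 5′ end. miR-183, miR-96 and miR-182 are processed from neighbouring hairpins and are known for high levels in photoreceptors, hair cells of the inner ear and sensory neurons, where changes in the seed of miR-96 cause deafness in mice and humans. miR-9 is abundant in neural progenitors and controls the timing of neuron formation, and miR-129-5p acts in neurons on the strength of synapses. In muscle, miR-182 has been described as a repressor of FoxO factors, which drive atrophy genes.

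The mature sequences below show which members can act through a common seed and which ones face each other on opposite strands. They are RefSeq's for the build GRCm38.p6, all 8 members were matched by name, and capitals mark the seed. The first 3 belong to the miR-183 cluster.
miR-182-5p: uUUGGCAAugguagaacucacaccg
miR-96-5p: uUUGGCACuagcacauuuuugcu
miR-183-5p: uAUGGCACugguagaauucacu
miR-9-5p: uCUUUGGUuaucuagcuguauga
miR-9-3p: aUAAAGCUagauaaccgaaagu
miR-129-5p: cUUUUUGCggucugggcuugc

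No seed was held by more than 1 of these. Within the cluster the seeds are close. With positions counted from 1 at the 5′ end of the first-named miRNA, miR-182-5p and miR-96-5p share 6 of 7 seed bases and are set apart by A8C. miR-183-5p and miR-96-5p also share 6 of 7, with A2U. miR-182-5p and miR-183-5p share 5 of 7, with U2A and A8C, although along the whole molecule they are the most alike, with 18 of 22 positions equal when aligned from the 5′ end without gaps. Among other mature mouse miRNAs in RefSeq's table, miR-1271-5p has the seed of miR-96-5p, and it is not among the 1065 names.

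The 3 hairpins of the cluster lie on the minus strand of chromosome 6 in GRCm38.p6, at chr6:30169668-30169737 for Mir183, chr6:30169446-30169551 for Mir96 and chr6:30165918-30165992 for Mir182. Mir183 and Mir96 are 116 bases apart and Mir96 and Mir182 are 3453 bases apart. In GENCODE M21 they overlap no other gene, and the nearest protein-coding gene is Nrf1. miR-9-5p and miR-9-3p have the same letters at 3 hairpins, all inside long noncoding genes. These are Mir9-1 (chr3:88215598-88215686, intron of Gm3764), Mir9-2 (chr13:83738814-83738885, exon of C130071C03Rik) and Mir9-3 (chr7:79505264-79505353, intron of Mir9-3hg), so reads of miR-9 cannot be given to a locus. miR-129-5p comes from Mir129-1 (chr6:29022619-29022691, exon of Gm3294) and Mir129-2 (chr2:94241364-94241453, intron of Mir670hg). The deposited table holds no coordinates and names the older build mm9, so these positions describe the miRNAs and not the authors' alignments.

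Depth was even, at 9015669 to 9813063 miRNA reads per library, summed over all names. Reads listed under more than 1 name, such as those of miR-9-5p and miR-9b-3p, are counted more than once in these sums. The unit is RPM, a name's reads in every 1000000 reads of the sum. Thus 1 read was worth 0.102 to 0.111 RPM, and a listed 0 leaves room for 3 reads, which is 0.306 to 0.333 RPM. These limits cover counting error only. The libraries carried the miRNAs of muscle. The 7 skeletal muscle markers, led by miR-206-3p, summed to 134850 to 154478 RPM in control and 101376 to 102575 RPM in TGF-beta libraries. The labels' extraction text names retinas, so defining miRNAs of neurons and retina other than the members were read as well. Of 5 neuron markers, 3 were among the 1065 names. They summed to 490 to 558 RPM in control and 438 to 488 RPM in TGF-beta libraries, nearly all of it miR-128-3p. miR-153-3p was at 3.06 to 6.25 RPM in control and 2.58 to 4.02 RPM with TGF-beta. miR-138-5p was below 1 RPM in every library. miR-124-3p and miR-137-3p were not among the 1065 names. miR-124-5p, the other arm of miR-124, had 5, 3 and 0 reads in control and 1, 0 and 1 with TGF-beta. Of 4 markers of retina and pigment epithelium, 3 were among the 1065 names. These summed to 0.863 to 1.94 RPM in control and 1.18 to 1.44 RPM in TGF-beta libraries, most of it miR-184-3p with 6 to 15 reads per library. miR-204-5p had 4, 2 and 4 reads in control and 0 in each TGF-beta library, and miR-211-5p had at most 2 reads anywhere. The remaining marker on the retina list, miR-124-3p, has no values here, so the retina sums cover only the other 3. Whether any reads came from retina was not tested. The members are called neural and sensory for the tissues they are known from.

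Against this background the cluster and miR-9 were well represented. In the order of control means, miR-182-5p took place 30 of 1065, miR-183-5p place 38 and miR-9-5p place 50. miR-129-5p stood at place 126, miR-96-5p at 140 and miR-9-3p at 237. The control mean of miR-182-5p, 3974 ± 391 RPM (SD, n = 3), lay between those of miR-221-3p (4158 ± 301 RPM) and miR-7a-5p (3807 ± 743 RPM), by less than their spread. miR-183-5p stood next to miR-103-3p (2799.9 ± 107 RPM) above and let-7d-5p (2605 ± 70.4 RPM) below, and miR-9-5p next to miR-125a-5p (1477 ± 417 RPM). Among the members themselves the order miR-182-5p, miR-183-5p, miR-9-5p, miR-129-5p, miR-96-5p, miR-9-3p was the same in both groups. Neighbours in this order did not overlap within a group, except miR-129-5p and miR-96-5p with TGF-beta. miR-9b-3p and miR-129b-3p overlapped the names they face in both groups. RPM has no correction for length, and the mature members are 21 to 25 bases long.

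**Figure D1:**
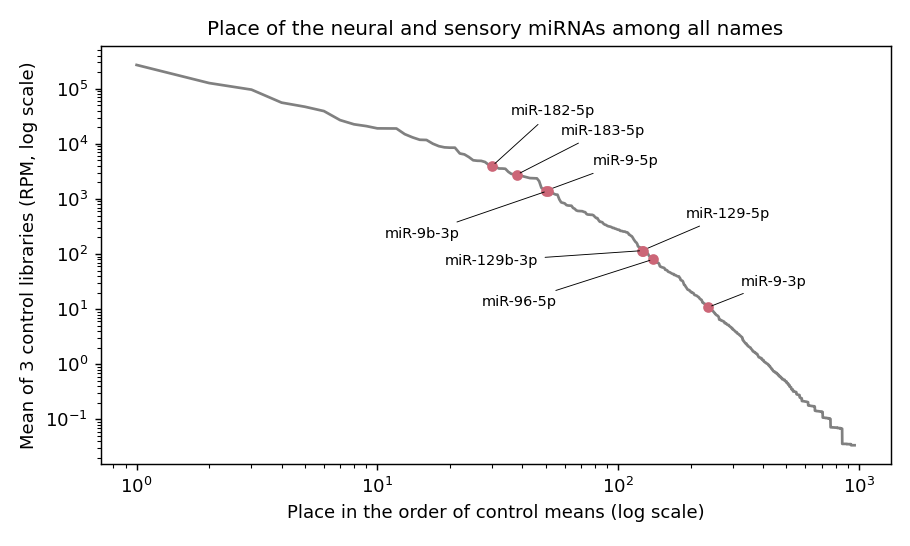
Mean of the 3 control libraries in RPM for every name with a control read (grey line, both axes on a log scale), in order of that mean, with the 8 members as red points. miR-182-5p is at place 30, and miR-9-3p, the lowest member, at place 237.

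The miR-183 cluster did not differ between groups beyond its spread. miR-182-5p was at 4288, 4098 and 3535 RPM in control replicates 1 to 3 and at 2991, 3739 and 4603 RPM in TGF-beta replicates 1 to 3. The TGF-beta libraries thus held both the lowest and the highest value, and the groups overlapped. The means of 3974 ± 391 and 3778 ± 807 RPM (SD, n = 3 each) gave a log2 fold change of −0.09 (95% interval −0.38 to 0.20, limma with Benjamini-Hochberg over all tested names, adjusted p = 0.818). On a linear scale the interval runs from 0.768 to 1.15 times the control level.

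miR-183-5p, which opens the cluster, was at 2880.4, 2790.3 and 2639 RPM in control and at 2062, 2754 and 2815 RPM in TGF-beta libraries. TGF-beta replicate 1 lay below all other libraries and the other two treated libraries fell among the controls. Its log2 fold change was −0.14 (95% interval −0.40 to 0.13, limma adjusted p = 0.689), on means of 2769.8 ± 122 and 2544 ± 418 RPM. miR-96-5p, the deafness-linked member, was at 87.6, 85.2 and 68.9 RPM in control and at 64.2, 88.7 and 73.6 RPM with TGF-beta, again with the lowest value in TGF-beta replicate 1. Its log2 fold change was −0.10 (95% interval −0.43 to 0.24, limma adjusted p = 0.823). Without TGF-beta replicate 1 the values became 0.07 for miR-182-5p, 0.0084 for miR-183-5p and 0.01 for miR-96-5p, so the sign of all 3 rests on that library.

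**Figure D2:**
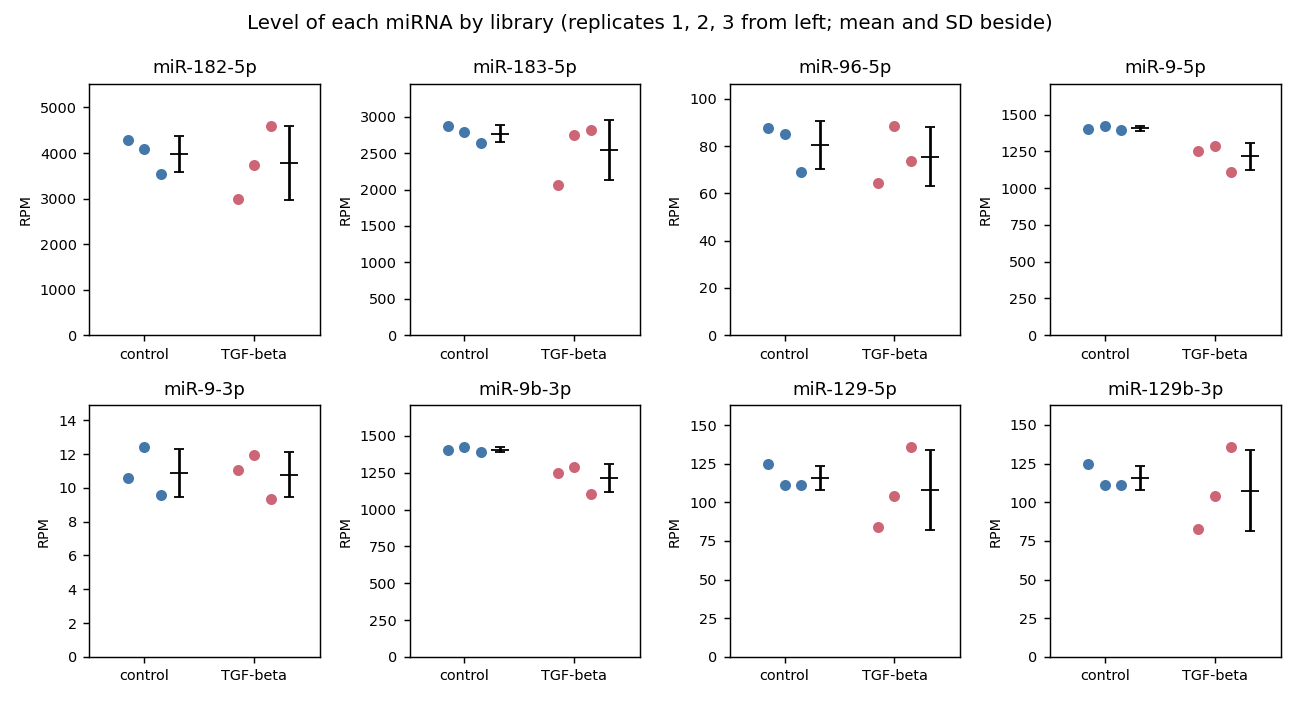
Level in RPM of each member in each library, with a linear axis from 0, replicates 1 to 3 from left to right in each group and the mean with its SD (n = 3) beside them. Control and TGF-beta values overlap for 6 of the 8 names, and for miR-9-5p and miR-9b-3p all TGF-beta values are below all control values.

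The proportions within the cluster were unequal and were similar in both groups. There were 1.43 ± 0.0808 reads of miR-182-5p for each read of miR-183-5p in control and 1.48 ± 0.141 with TGF-beta (SD, n = 3 each). miR-96-5p, whose hairpin is nearest to that of miR-183, was far rarer, with 34.6 ± 3.17 reads of miR-183-5p for each of its reads in control and 33.8 ± 3.87 with TGF-beta. Values of both ratios overlapped between groups. The ratio of miR-182-5p to miR-96-5p ran from 48.1 to 51.3 in control and from 42.2 to 62.5 in TGF-beta libraries, with the highest value in replicate 3. These ratios do not depend on the scaling of a library, but they do carry the unequal capture of different sequences in library preparation, whose part was not tested.

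The 5p arm made up nearly all of the cluster's reads. miR-182-3p had 16 to 28 reads per library and miR-183-3p 11 to 18, against 19206 to 42079 reads of the matching 5p arms, and miR-96-3p had 0 to 5. On average there were 1856 ± 419 reads of miR-182-5p for each read of miR-182-3p in control and 1695 ± 448 in TGF-beta libraries. On the log2 scale miR-182-3p differed by 0.04 (SE 0.24) and miR-183-3p by 0.13 (SE 0.24), with limma adjusted p values of 0.980 and 0.861. Both signs turned without control replicate 1, and that of miR-182-3p also without TGF-beta replicate 3 (−0.12).

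miR-9-5p, together with miR-9b-3p that counts the same reads, had the tightest control values of the members and was the only one whose groups were apart. miR-9-5p was at 1404, 1426 and 1394 RPM in control and at 1251, 1288 and 1108 RPM in TGF-beta libraries, each treated value below each control value. Means were 1408 ± 16.4 and 1215 ± 94.9 RPM (SD, n = 3 each), a ratio of 0.863. The log2 fold change was −0.21 (95% interval −0.46 to 0.03) and did not pass the threshold (limma unadjusted p = 0.0837, adjusted p = 0.411). In the authors' deposited table its unadjusted p is 0.0258, and that of miR-9b-3p 0.0267, and those of the 6 other members lie between 0.419 and 0.941. The groups did not overlap for 2 of the 8 members, miR-9-5p and miR-9b-3p, which count the same reads, while they did not overlap for 21.3% of all 418 tested names. Depth was no limit here, at 9989 to 13781 reads of miR-9-5p per library.

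The other arm of the hairpin, miR-9-3p, was far rarer than miR-9-5p. It was at 10.6, 12.4 and 9.60 RPM in control and at 11.1, 11.96 and 9.32 RPM in TGF-beta libraries, and the groups overlapped. These values rest on 84 to 115 reads per library. Its log2 fold change was −0.01 (95% interval −0.37 to 0.35, limma adjusted p = 0.999), and its sign turned in 7 of 19 alternatives. There were 131 ± 15.2 reads of miR-9-5p for each of miR-9-3p in control and 113 ± 5.61 with TGF-beta (SD, n = 3 each). The log2 ratio of the arms was 6.90 ± 0.15 in control and 6.69 ± 0.06 with TGF-beta, a difference of −0.20 (SE 0.11, limma adjusted p = 0.425 over 52 hairpins). It ran from −0.29 when control replicate 2 was dropped to −0.13 when control replicate 3 was dropped. Of the 52 hairpins, 0 passed (0% called), and 6 had an unadjusted p under 0.05.

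miR-129-5p was at 125, 111 and 111 RPM in control and at 83.8, 104 and 136 RPM in TGF-beta libraries. As for miR-182-5p, the treated libraries held both ends of the range, replicate 1 the lowest and replicate 3 the highest value. The log2 fold change was −0.13 (95% interval −0.47 to 0.22, limma adjusted p = 0.784), on means of 116 ± 7.86 and 108 ± 26.1 RPM (SD, n = 3 each). Leaving out TGF-beta replicate 1 gave 0.04, and leaving out TGF-beta replicate 3 gave −0.30 (limma adjusted p = 0.152), so single libraries set its size and its sign. The 3p arms of its hairpins carry names of their own. miR-129-2-3p, from Mir129-2, had 39 to 64 reads per library, and miR-129-1-3p, from Mir129-1, had 0 reads in 5 libraries and 2 in TGF-beta replicate 3. The mean of miR-129-2-3p was 5.89 ± 0.905 RPM in control and 4.93 ± 1.13 RPM with TGF-beta, and the log2 difference was −0.22 (SE 0.20, limma adjusted p = 0.680). That difference was −0.38 when TGF-beta replicate 1 was dropped, −0.34 when control replicate 2 was dropped, −0.13 when TGF-beta replicate 2 was dropped and −0.09 with miR-21a-5p left out.

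**Figure D3:**
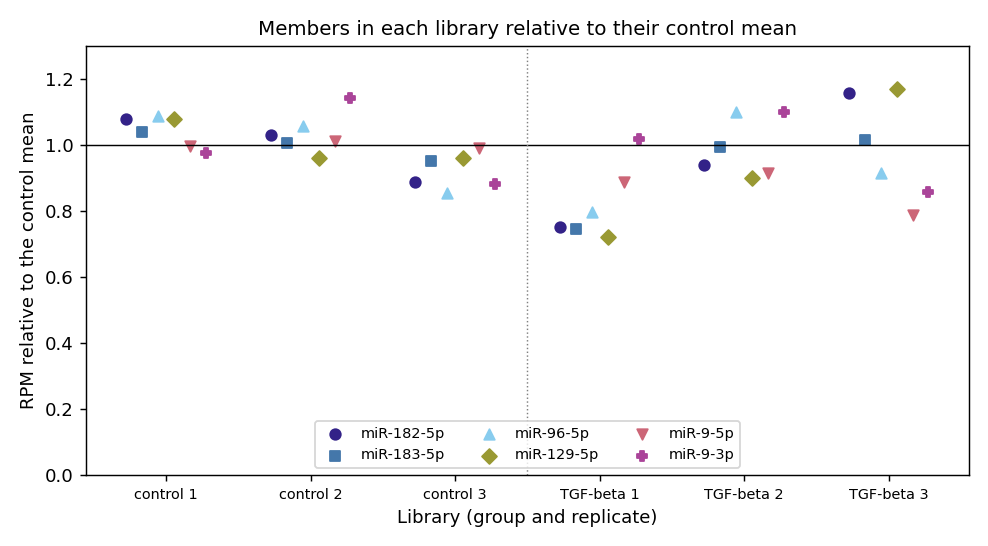
RPM of 6 members in each of the 6 libraries, divided by the mean of that member over the 3 control libraries, with the line at 1. In TGF-beta replicate 1 miR-182-5p, miR-183-5p, miR-96-5p and miR-129-5p are at 0.723 to 0.797, and miR-9-5p has its lowest value, 0.787, in TGF-beta replicate 3.

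Relative to their control means, the members fell into different patterns in the treated libraries. In TGF-beta replicate 1 miR-182-5p was at 0.753, miR-183-5p at 0.745, miR-96-5p at 0.797 and miR-129-5p at 0.723 of the control mean. miR-9-5p was at 0.888 and miR-9-3p at 1.02 in the same library. In TGF-beta replicate 3 miR-182-5p and miR-129-5p were at 1.16 and 1.17, and miR-9-5p was at 0.787. The members of the cluster and miR-129-5p thus had their lowest value in one treated library and miR-9-5p in another. Among the 133 names that averaged 100 RPM or more, the coefficient of variation over the TGF-beta libraries was 21.4% for miR-182-5p, with 20 names above it, 24.2% for miR-129-5p, with 11 above it, and 7.81% for miR-9-5p, with 89 above it. The median of these names was 10.4%. In control the same measure was 1.16% for miR-9-5p, with 125 names above it.

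Taking the 8 members in the fit of the whole table, 0 of 8 passed limma with Benjamini-Hochberg adjustment, beside 7.89% called among all 418 tested names, and 0 of 8 had an unadjusted p under 0.05, beside 15.3% of all tested names. With edgeR, limma-voom and DESeq2 on the recovered reads 0 of 8 passed as well, and 6.94%, 7.18% and 6.94% of all names were called. All 8 members were tested, since each passed the filter on low values. All 8 log2 fold changes were negative, with a range of −0.22 to −0.01, and so were 59.6% of all tested values, whose median was −0.05. The 8 names stand for 6 distinct sets of reads. The lower ends of the 8 intervals lie at 0.717 to 0.773 times the control level and the upper ends at 1.02 to 1.28 times, so the test does not show that the members were alike in both groups.

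RPM are shares, and miR-21a-5p, a fibrosis-linked miRNA and the most abundant name, went from 270295 ± 11213 RPM in control to 351579 ± 14070 RPM with TGF-beta (SD, n = 3 each). Rescaling every library without miR-21a-5p moved the median of all tested names up by 0.16 on the log2 scale, from −0.05 to 0.11. On that scale miR-182-5p was at 0.08, miR-183-5p at 0.03, miR-96-5p at 0.07, miR-9-3p at 0.15 and miR-129-5p at 0.04, while miR-9-5p and miR-9b-3p were at −0.04 and −0.05. No direction is therefore given for the members as a group. miR-9-5p kept a negative sign in all 19 alternatives run, from −0.26 to −0.04, and passed in 0 of them.

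**Figure D4:**
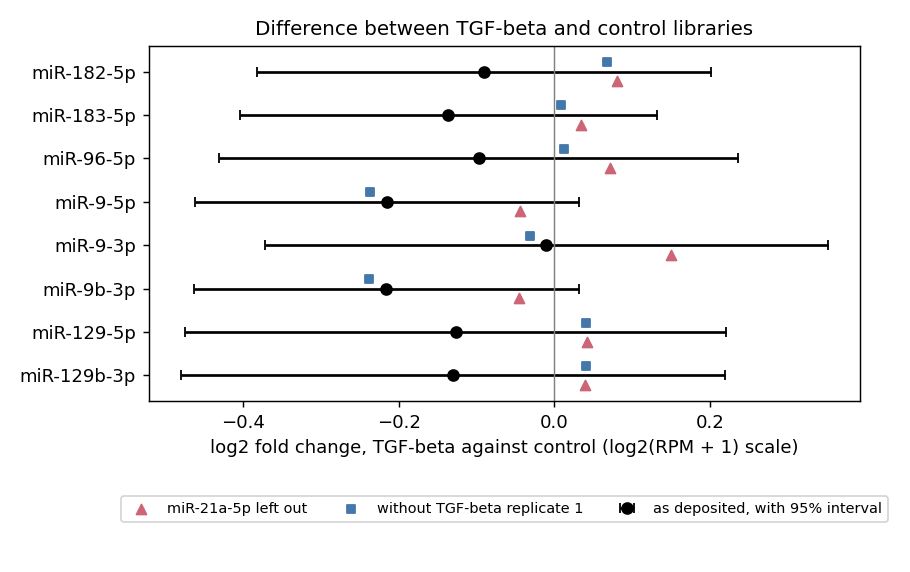
Log2 fold change of each member, TGF-beta against control, on the log2(RPM + 1) scale, with its 95% interval (black), with miR-21a-5p left out (red triangles) and without TGF-beta replicate 1 (blue squares). All 8 intervals include 0, and miR-9-5p and miR-9b-3p keep a negative value in all 3 settings.

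Names facing the members or their partner arms on opposite strands had nearly equal reads for 1 arm and unequal reads for the other. In the pairs below, capitals mark the stretch of the first name whose reverse complement is in the second, and the stretch itself in the second. They are shown because all 4 pairs are complements of like length, while their read counts are not alike in the same way.
miR-9-5p: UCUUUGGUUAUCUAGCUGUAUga
miR-9b-3p: AUACAGCUAGAUAACCAAAGA
miR-9-3p: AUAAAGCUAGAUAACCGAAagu
miR-9b-5p: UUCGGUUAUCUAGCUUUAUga
miR-129-5p: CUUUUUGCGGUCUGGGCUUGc
miR-129b-3p: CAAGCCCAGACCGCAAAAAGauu
miR-129-2-3p: AAGCCCUUACCCCAAAAAGCau
miR-129b-5p: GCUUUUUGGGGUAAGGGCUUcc

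The stretch is 21 bases for miR-9-5p with miR-9b-3p and 20 for miR-129-5p with miR-129b-3p. Reads of miR-9b-3p came to 99.6 to 99.9% of those of miR-9-5p over the 6 libraries, with 17 to 41 reads fewer. Reads of miR-129b-3p came to 99.1 to 99.9% of those of miR-129-5p, with 1 to 7 reads fewer. A single read has 1 sequence and these names are complements, so each of the 2 pairs stands for a single measurement, and whether the authors' counting used strand is not stated in the labels. On the other arm the stretch is 19 bases for miR-9-3p with miR-9b-5p and 20 for miR-129-2-3p with miR-129b-5p. The read counts were far apart there. Whether the few reads of the lower name were also counted for the facing name was not tested. miR-9b-5p had 2 to 11 reads, or 1.94 to 12.2% of those of miR-9-3p, and miR-129b-5p had 2 to 8 reads, or 5.13 to 15% of those of miR-129-2-3p. These percentages compare 2 counts and carry the counting error of the smaller one.

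**Figure D5:**
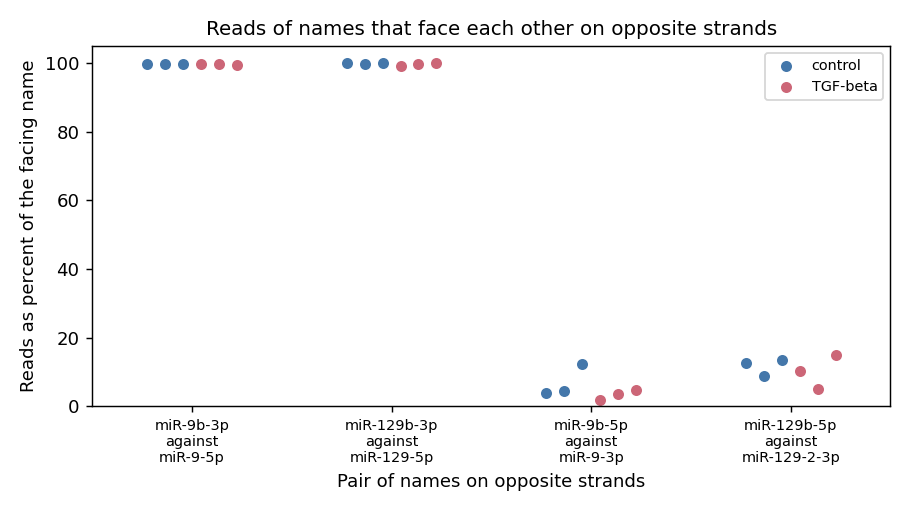
Reads of 4 names as a percent of the reads of the name that faces them on the opposite strand, 1 point per library, blue for control and red for TGF-beta. miR-9b-3p and miR-129b-3p are at 99.1 to 99.9% in every library, and miR-9b-5p and miR-129b-5p at 1.94 to 15%.

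Other miRNAs known from neurons, glia and the eye were mostly rare. Of a list of 18 names, 15 were among the 1065 names and 8 passed the filter on low values. Of these 8, 1 rose and 0 fell, beside 4.07% of all tested names called higher and 3.83% called lower, and their median log2 fold change was −0.14 against −0.05 over all. The name that rose was miR-7a-5p, abundant in endocrine and nerve cells, which went from 3807 ± 743 to 5507 ± 798 RPM (log2 fold change 0.54, SE 0.14, limma adjusted p = 0.0230). Its call ended in 7 of 19 alternatives, with limma adjusted p values of 0.131, 0.180 and 0.120 when control replicate 3, treated replicate 2 and treated replicate 3 were dropped in turn. The most abundant others were miR-149-5p at 584 ± 12.9 and 474 ± 47.0 RPM (−0.30, SE 0.13, limma adjusted p = 0.217, and −0.38 with adjusted p = 0.0207 when TGF-beta replicate 3 was dropped), miR-128-3p, a brain-enriched miRNA also known in muscle, at 521 ± 35.4 and 455 ± 26.2 RPM (−0.20, SE 0.13), and miR-132-3p, induced by activity in neurons, at 76.3 ± 9.07 and 71.4 ± 5.70 RPM (−0.09, SE 0.15). With miR-21a-5p left out, miR-149-5p was at −0.13, miR-128-3p at −0.03 and miR-132-3p at 0.08. With single libraries dropped, miR-132-3p ran from −0.19 (control replicate 1) to −0.02 (control replicate 2). The sum of the list ran from 4213 to 5704 RPM in control and from 5651 to 7362 RPM in TGF-beta libraries, most of it miR-7a-5p.

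Names with a like pattern over the 6 libraries were looked up for the members averaging 100 RPM or more, which leaves out miR-96-5p and miR-9-3p. Likeness was the root mean square distance of log2(RPM + 1) values, each centred on its mean over the libraries, among 127 names averaging 100 RPM or more outside the set. For miR-9-5p the nearest was let-7b-5p, at a distance of 0.04 against a median of 0.18, with a log2 fold change of −0.18, followed by miR-140-3p and miR-351-5p at 0.08 each. For miR-183-5p the nearest was miR-196b-5p at 0.07 against a median of 0.23. For miR-182-5p let-7i-5p, miR-1981-5p and miR-1198-5p were all at 0.11 against a median of 0.26. For miR-129-5p the nearest was miR-1198-5p at 0.08 against 0.28. Within the set, miR-182-5p was nearer to miR-129-5p (0.07) than to its neighbour in the cluster miR-183-5p (0.09), and miR-9-5p was at 0.25 from miR-182-5p. A nearest name is never farther than the median name by construction, so the median alone does not show that a likeness is close. The root mean square spread of a member around its own mean was 0.13 for miR-9-5p and 0.16 for miR-183-5p. It was 0.20 for miR-182-5p and 0.22 for miR-129-5p. These distances are descriptions over 6 libraries that share their scaling.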

How the data were processed

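The authors deposited 1 table of 6 library columns headed tpm, made with build mm9 per the submitters' processing notes. Aligner, counting tool and miRNA annotation are not given in the sources here. The values of the deposited columns are RPM, since each sums to 1000000 and 100% of values are whole multiples of the worth of 1 read, to within 0.01 read. Group means by the authors, also RPM, and their unadjusted p-value for each name stand in the same deposited table.

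limma 3.58.1 (R 4.3.3) with an intensity trend was run on log2(RPM + 1) over the 418 names that reached 1 RPM in 3 or more libraries, two-sided, with Benjamini-Hochberg adjusted p under 0.05 as the threshold; 647 names were not tested. Fold changes on this scale understate changes of low names. Arm ratios, log2((5p + 1)/(3p + 1)), were compared with limma where both arms averaged 10 RPM or more. The steps were run on simulated data, with changes larger than those of the members. These runs thus do not show how often changes of the members' size would be found. After the values were seen, edgeR 4.0.16, limma-voom and DESeq2 1.42.0 were run on the recovered reads. Within groups, replicates differed more than by sampling noise (chi-square divided by its degrees of freedom 75.1 to 324), so none was counted as a copy.

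All members, their partner arms and facing names are named. Of 18 further neural and sensory names, those that passed and the 4 most abundant are named, as are control neighbours in the order of levels and the nearest names in pattern. The members and lists were chosen with earlier results of these data known. Sequences are from RefSeq (GRCm38.p6) and host genes from GENCODE M21.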

Additional observations from a re-analysis of the deposited data

How the results depend on the processing

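Of the 8 members, 0 passed in each of 19 alternatives. Their signs turned in 17 of 150 comparisons. With miR-21a-5p left out the values were 0.080 (miR-182-5p), 0.035 (miR-183-5p), 0.072 (miR-96-5p), 0.15 (miR-9-3p), 0.042 (miR-129-5p) and 0.039 (miR-129b-3p). miR-9-3p also turned with median scaling (0.038), edgeR (0.056), limma-voom (0.060) and DESeq2 (0.041). With single libraries left out, values ran from −0.24 to 0.067 for miR-182-5p, −0.22 to 0.0084 for miR-183-5p, −0.22 to 0.012 for miR-96-5p, −0.088 to 0.082 for miR-9-3p, −0.30 to 0.041 for miR-129-5p and −0.31 to 0.041 for miR-129b-3p; the cause was not tested. Without TGF-beta replicate 3, miR-129-5p and miR-129b-3p had an unadjusted p under 0.05 (limma adjusted p = 0.152). Of the further names, miR-132-3p turned to 0.079 with miR-21a-5p left out, and with libraries left out miR-182-3p ran from −0.12 to 0.18 and miR-183-3p from −0.021 to 0.22. With a single name per shared set miR-9b-3p and miR-129b-3p gave no value. Calls over all names numbered 33, and 19 without a filter, 19 with a mean of at least 10 RPM, 10 with quantile normalization, 16 without the intensity trend and 17 to 36 with a library left out. With miR-21a-5p left out they split into 25 higher and 7 lower, against 17 and 16. Deviations from the group mean had r of −0.08 to −0.07 for same-numbered libraries and 0.007 to 0.075 for differently numbered ones. Deviations from a mean of 3 libraries depend on each other, so these values cannot show whether the numbers pair libraries. The labels state no pairing. The replicate block gave 32 calls over all names, 0 among the members and 0 hairpins. miR-9-3p rests on 84 to 115 reads, which limits its precision.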
